A study of Mus musculus with 5 samples.

Results

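The transcripts of 10 DNA glycosylases were followed in the hippocampus of 3-month-old mice by RNA-sequencing (RNA-seq). They were chosen by name (*Ogg1*, *Mutyh*, *Nthl1*, *Mbd4*, *Neil1*, *Neil2*, *Neil3*, *Ung*, *Smug1* and *Tdg*), and all 10 were found among the 23361 gene symbols listed for each library. Of 5 samples, 2 were controls (*Hdac1*f/f, with a floxed *Hdac1* allele and no Cre) and 3 were conditional knockouts (*Hdac1* cKO, genotype *Hdac1*f/f, *Nestin-Cre*). Both groups share the floxed allele. *Nestin-Cre* acts in neural progenitors, so *Hdac1* is lost in neurons and astrocytes but not in microglia. Because the controls carry no Cre, effects of the transgene itself and of the deletion cannot be told apart. Levels are given in FPKM, fragment numbers scaled to transcript length and to library depth, so genes of different length can be compared.

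A DNA glycosylase opens base excision repair by cutting a damaged or mispaired base from the sugar, after which an endonuclease, a polymerase and a ligase restore the strand. The 10 enzymes belong to 3 structural families. *Ogg1*, *Mutyh*, *Nthl1* and *Mbd4* encode helix-hairpin-helix enzymes, *Neil1*, *Neil2* and *Neil3* encode relatives of the bacterial Fpg and Nei proteins, and *Ung*, *Smug1* and *Tdg* encode uracil-DNA glycosylases. The study followed OGG1, which removes 8-oxoguanine and is a substrate of the deacetylase HDAC1, so the comparison here asks whether *Ogg1* and its relatives differ at the transcript level before old age.

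*Hdac1* itself read 8.95 and 13.1 FPKM in the libraries without Cre (control 1 and 2) and 1.95, 3.12 and 3.37 FPKM in those with it (cKO 1 to 3), a ratio of means of 0.255. Values below are given in this order throughout, and "with Cre" stands for *Hdac1* cKO. The libraries held an estimated 5140000 to 6770000 fragments. Hippocampal neuron markers such as *Prox1* and *Neurod6* were present in every library, with 302 to 343 FPKM in sum over 10 genes. The libraries fell into 2 sets by their low values, control 1 with cKO 1 and control 2 with cKO 2 and cKO 3. Differences within each set are therefore given for the tested glycosylases.

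*Tdg* was the only glycosylase whose sequence recurs elsewhere in the genome, which bears on how its values can be read. When the longest coding transcript of each glycosylase was searched against the mouse genome (mm9), the other 9 had 0 matches of at least 200 nt at 90% identity outside their own locus. *Tdg* (chromosome 10, 82092573 to 82113544, plus strand) matched 4 other places with at least 25% of its 3502 nt. The longest match was 3026 nt at 98.6% identity on chromosome 15 (82346686 to 82349711), over the gene *Gm5806*, which is not analysed here. The others were 2935 nt at 99.3% on chromosome 7 (83388071 to 83391005) with no annotated gene, 2805 nt at 99.3% on chromosome 10 (41772360 to 41775162) over the pseudogene *Gm9855*, and 1254 nt at 99.6% on chromosome 19 (33746768 to 33748021), outside the exons of *Lipo1*.

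*Gm9855* has values of its own in these data, so its sequence was set against that of *Tdg*. All 1242 annotated nt of *Gm9855* aligned to nt 182 to 1423 of the *Tdg* transcript, a stretch that covers nearly the whole coding part (nt 158 to 1420). They were 99.28% identical, with 9 differences and 0 gaps, and 756 nt in a row held no difference. *Gm9855* has a single exon, while 8 exon junctions of *Tdg* lie inside the match. The stretches below, of 30 bases each, hold 6 of the 9 differences. They are some of the places inside the match where the copies can be told apart by base. Another 2260 nt of the *Tdg* transcript lie outside the annotated *Gm9855*, but 1563 of these also match the genome around it. Capitals mark the differing bases, and positions count from the first base of the *Tdg* transcript. The first stretch holds A327C. It lies at chr10:82101578-82101607 (plus strand) in *Tdg* and at chr10:41775000-41775029 (minus strand) in *Gm9855*:
Tdg: acagcaggtgcccgAagacgctcctgtcca
Gm9855: acagcaggtgcccgCagacgctcctgtcca
The next holds G1106A and G1108C, at chr10:82110076-82110105 in *Tdg* and chr10:41774221-41774250 in *Gm9855*:
Tdg: gcattgaacgcaacGcGgacgttcaggaag
Gm9855: gcattgaacgcaacAcCgacgttcaggaag
The densest stretch holds G1313A, A1319G and G1330A, at chr10:82111347-82111376 in *Tdg* and chr10:41774008-41774037 in *Gm9855*:
Tdg: gagaagcgGcccccAgcgatgttccGaatg
Gm9855: gagaagcgAcccccGgcgatgttccAaatg

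The glycosylases fell into an upper group of 6 and a lower group of 4 in every library. *Smug1*, which removes uracil and hydroxymethyluracil, had the highest mean level as listed (5.41 ± 0.416 FPKM, SD, n = 5 libraries of both genotypes). It was followed by *Tdg* (4.42 ± 1.77), *Ogg1* (3.74 ± 0.609), *Neil1* (2.38 ± 0.482), *Nthl1* (2.15 ± 0.404) and *Mbd4* (2.03 ± 0.347). *Mutyh* (0.659 ± 0.271), *Neil2* (0.543 ± 0.280), *Ung* (0.407 ± 0.0921) and *Neil3* (0.0976 ± 0.0728) were each below 1 FPKM in all 5 libraries. All of these are modest levels: among the 17697 genes with a mean above 0, *Smug1* stood at percentile 49.5, *Ogg1* at 43.4 and *Neil3* at 10.8.

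**Figure D1:**
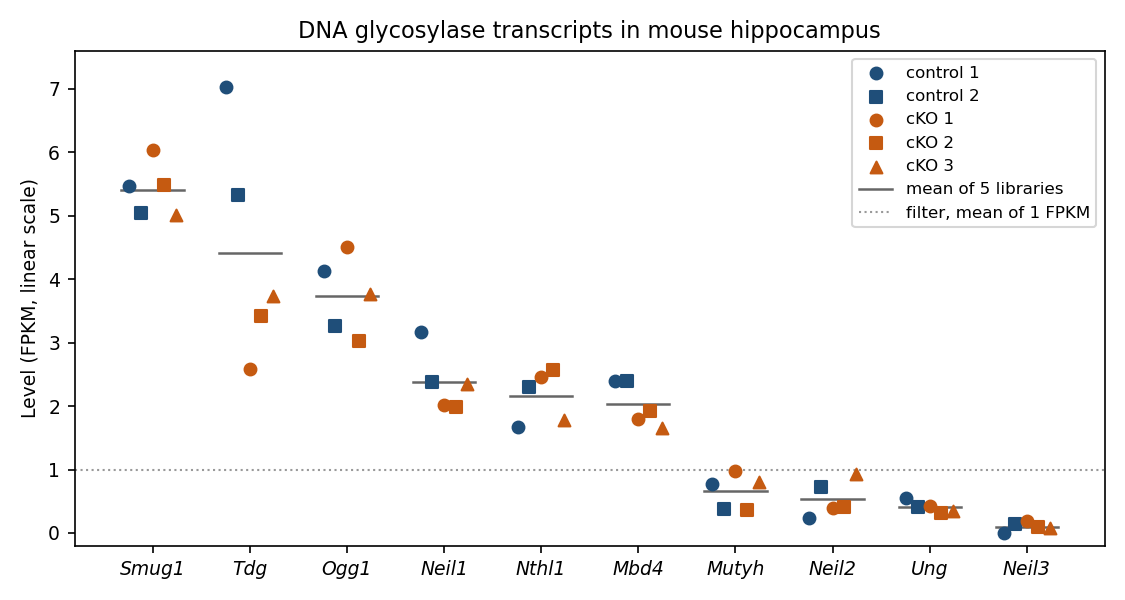
Level of each glycosylase in FPKM on a linear axis, with 1 point per library (blue, 2 controls; orange, 3 *Hdac1* cKO; shapes, replicate numbers) and a grey bar at the mean of the 5 libraries. The 6 genes on the left lie above the dotted line at 1 FPKM in every library and the 4 on the right below it, and *Tdg* has the widest spread.

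Neighbours in this order were compared within each library by an exact two-sided sign-flip permutation test over the 5 libraries, for 9 pairs. The order itself was set by the means of these same 5 libraries. In 3 pairs the order was the same in 5 of 5 libraries: *Ogg1* above *Neil1* (mean difference 0.49 on the log2(FPKM + 1) scale), *Mbd4* above *Mutyh* (0.88) and *Ung* above *Neil3* (0.36). Each of these gave an exact p of 0.0625, the smallest that 5 libraries allow (adjusted 0.1875), so no pair could pass 0.05. The other 6 pairs changed places between libraries, and a test with this smallest p cannot show whether they differ. The ranges of *Ogg1* (3.03 to 4.51 FPKM) and *Neil1* (1.98 to 3.17 FPKM) overlapped, whereas those of *Mbd4* and *Mutyh*, and of *Ung* and *Neil3*, did not overlap.

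As listed, *Tdg* was first in both control libraries, above *Smug1*, and ranked 2 or 3 in the cKO libraries. Its level exceeded that of *Smug1* by 0.19 in the controls and was 0.62 lower in *Hdac1* cKO, both on the log2(FPKM + 1) scale. This does not hold when the values of the pseudogene *Gm9855* are added to those of *Tdg*, weighted by length, an alternative chosen after seeing the data. *Tdg* then lay above *Smug1* in all 5 libraries, by a mean of 0.36 (exact p = 0.0625), and was first in both genotypes. *Neil1*, *Nthl1* and *Mbd4* also changed places between the group means. *Smug1* stood above *Ogg1* in all 5 libraries, and *Neil3* was last in each.

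*Ogg1* (chromosome 6, 113276966 to 113285062, plus strand) read 4.14 and 3.27 FPKM without Cre and 4.51, 3.03 and 3.76 FPKM with it. The highest and the lowest of the 5 values were both cKO libraries, so the controls lay inside the cKO range. Its log2 fold change, cKO minus control on log2(FPKM + 1) as for all fold changes here, was 0.01 (SE 0.17) with a 95% interval of −0.38 to 0.41 (limma, adjusted p = 0.993). The study's fold threshold is 1.5 (0.58 on the log2 scale). Adding 1 to FPKM understates fold changes at low FPKM, so this interval cannot settle whether FPKM changed by that much. The *Ogg1* fold change was 0.10 and 0.04 within the sets. In these bulk samples, fewer cells of a type and less RNA per cell cannot be told apart. *Ogg1* rests on an estimated 24 to 47 fragments per library, and 232 of its 2034 exonic nt lie opposite exons of *Camk1*, a kinase gene expressed at 31.1 to 41.6 FPKM. Whether counting used the strand is not stated, and the part of *Camk1* reads in *Ogg1* was not tested.

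The partner enzymes for oxidized bases also showed no genotype difference that passed the test. *Nthl1*, which removes oxidized pyrimidines such as thymine glycol, read 1.68 and 2.30 FPKM without Cre and 2.45, 2.57 and 1.77 FPKM with it. These groups overlapped (log2 fold change 0.13, SE 0.18, interval −0.28 to 0.53, limma, adjusted p = 0.974). It differed by 0.37 within the first set of libraries and by −0.07 within the second, so the sets disagreed in direction.

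*Neil1*, which acts on ring-opened purines and oxidized pyrimidines, read 3.17 and 2.37 FPKM without Cre and 2.01, 1.98 and 2.35 FPKM with it. Every cKO library was below both controls, as in 9.41% of all tested genes, but the gap between the nearest libraries was only that from 2.35 to 2.37 FPKM. Its log2 fold change was −0.27 (SE 0.16, interval −0.63 to 0.09, limma, adjusted p = 0.955), and it was −0.47 and −0.09 within the sets.

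The rarer enzymes of this group were below the filter of a mean of 1 FPKM and were not tested in the main fit. Without a filter the unadjusted limma p was 0.551 for *Mutyh*, 0.646 for *Neil2* and 0.485 for *Neil3*. *Mutyh*, which removes adenine placed opposite 8-oxoguanine, read 0.765 and 0.381 FPKM without Cre and 0.976, 0.368 and 0.802 FPKM with it. *Neil2*, active on oxidized bases in open DNA, was at 0.241 and 0.725 FPKM against 0.398, 0.415 and 0.933 FPKM. *Neil3*, known from dividing cells, had a listed value of 0 in one control library and 0.135 FPKM in the other, and 0.195, 0.0870 and 0.0711 FPKM with Cre. The groups overlapped in all 3 genes. At an estimated 3 to 11 fragments for *Mutyh* and for *Neil2* and 0 to 3 for *Neil3* in each library, their values carry a large counting error, and no difference was detectable at this depth. Proliferation markers were low as well, with 7.97 to 10.8 FPKM in sum over 10 genes.

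Summed over the 6 enzymes for oxidized bases, the level came to 9.99 and 9.18 FPKM without Cre and 10.5, 8.44 and 9.70 FPKM with it, so the controls lay inside the range of the cKO libraries.

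Among the enzymes for uracil and for mispaired thymine, *Smug1* varied least. It read 5.47 and 5.04 FPKM without Cre and 6.03, 5.49 and 5.01 FPKM with it, with the smallest spread of the 10 genes relative to its mean (7.69%). Its log2 fold change was 0.06 (SE 0.13, interval −0.24 to 0.35, limma, adjusted p = 0.989), and it was 0.12 and 0.05 within the sets. *Ung*, the main enzyme for uracil in DNA, was at 0.549 and 0.405 FPKM against 0.431, 0.313 and 0.341 FPKM. These groups overlapped, and the values of *Ung* rest on an estimated 3 to 8 fragments. It was not tested in the main fit, and without a filter its unadjusted limma p was 0.254.

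*Mbd4* and *Tdg* both remove thymine from G:T mispairs, which arise when methylated cytosine loses its amino group. *Mbd4* (chromosome 6, 115790715 to 115803389, minus strand) read 2.40 and 2.40 FPKM without Cre and 1.80, 1.92 and 1.65 FPKM with it. The controls were close together and all 3 cKO libraries lay below them, but the difference did not pass the test (log2 fold change −0.29, SE 0.14, interval −0.61 to 0.04, limma, unadjusted p = 0.0762, adjusted p = 0.955). The unadjusted p ranged from 0.0299, with no mean-variance trend in the fit, to 0.203 over the alternatives, and the fold change stayed below 1.5 in each. It was −0.28 within the first set of libraries and −0.29 within the second. No near-identical copy of *Mbd4* was found, and 36 to 58 fragments are estimated behind each value. *Ift122*, whose start lies 99 nt from that of *Mbd4* on the opposite strand, had overlapping groups (log2 fold change 0.05, limma, adjusted p = 0.989). Other glycosylases with such a neighbour were *Nthl1* and *Mutyh*. *Tsc2* beside *Nthl1* was lower without overlap (21.5 and 20.4 against 19.3, 18.4 and 19.2 FPKM). *Toe1* beside *Mutyh* was higher without overlap (7.13 and 7.42 against 7.49, 8.87 and 8.70 FPKM). Of all tested genes 20.4% had separate groups.

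*Tdg*, which also excises the oxidized cytosines made by TET enzymes, was the only glycosylase past the study's threshold (a fold change of at least 1.5 with an unadjusted p under 0.05, which 0.659% of all tested genes passed). It read 7.03 and 5.32 FPKM without Cre and 2.58, 3.42 and 3.74 FPKM with it, which average 6.18 ± 1.21 FPKM (SD, n = 2) against 3.25 ± 0.598 FPKM (SD, n = 3). Both controls lay above all 3 cKO libraries. The log2 fold change was −0.76 (SE 0.17, interval −1.15 to −0.36, limma, unadjusted p = 0.00225), and it did not pass correction over all 12740 tested genes (adjusted p = 0.955, and 0.267 to 1.0 over the alternatives). It was −1.17 and −0.47 within the sets. Without control 1 it was −0.58, just short of the fold threshold on the log2(FPKM + 1) scale (limma, unadjusted p = 0.0239), while the ratio of mean FPKM, 1.64, was still above 1.5. The call without that library thus depends on the scale. On the opposite strand, exons of *Glt8d2* overlap 367 of the 5374 exonic nt of *Tdg*, and their part in its values was not tested.

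The annotated pseudogene *Gm9855* moved the other way. It read 4.53 and 5.93 FPKM without Cre and 12.3, 8.95 and 8.17 FPKM with it, a log2 fold change of 0.79 (SE 0.18, limma, unadjusted p = 0.00263, adjusted p = 0.955). The library with the least *Tdg*, cKO 1, had the most *Gm9855*, and the library with the most *Tdg*, control 1, had the least. Within the sets *Gm9855* differed by 1.27 and 0.46, against −1.17 and −0.47 for *Tdg*.

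Because the copies share most of the coding sequence, the *Tdg* and *Gm9855* values were summed, each weighted by its transcript length. The sum came to 8.64 and 7.43 FPKM of *Tdg* without Cre and 6.96, 6.60 and 6.64 FPKM with it. All 3 cKO libraries were still below both controls, but the difference was smaller and did not pass the threshold (log2 fold change −0.22, SE 0.12, interval −0.50 to 0.05, limma, unadjusted p = 0.0998, adjusted p = 0.955). Of this sum *Tdg* took 81.4% and 71.7% without Cre and 37.1%, 51.9% and 56.3% with it. The plain sum of both FPKM values, an alternative chosen after seeing the data, turned the direction to 0.17 (limma, unadjusted p = 0.199), so even the sign of the combined difference depends on the weights. Whether reads were divided differently between the copies in the 2 groups was not tested.

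**Figure D2:**
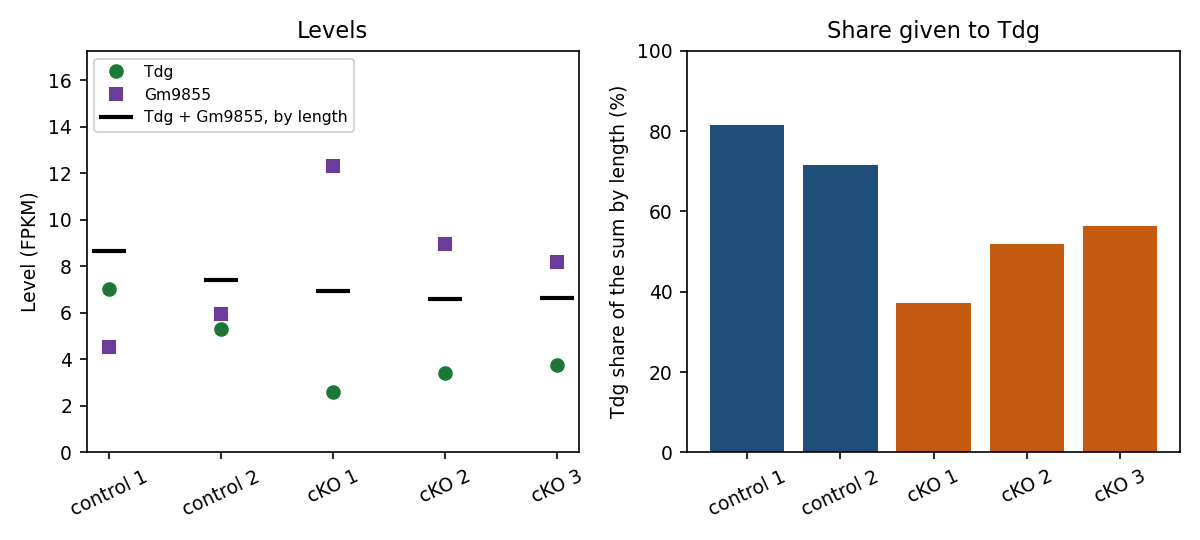
Left, level in FPKM of *Tdg* (green), *Gm9855* (purple) and their sum weighted by transcript length (black bars) in each of the 5 libraries; right, share of that sum, in percent, that was given to *Tdg* (blue, control; orange, *Hdac1* cKO). *Tdg* and *Gm9855* mirror each other, the sum runs from 6.60 to 8.64 FPKM, and the *Tdg* share is 71.7% or more in the controls and 56.3% or less in the cKO libraries.

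Summed over the 4 enzymes for uracil and thymine, the level came to 15.5 and 13.2 FPKM without Cre and 10.8, 11.1 and 10.7 FPKM with it, and over all 10 glycosylases to 25.5 and 22.3 FPKM against 21.4, 19.6 and 20.4 FPKM. Both sums were lower in every cKO library than in either control, but with *Gm9855* added to *Tdg* by length the sum over all 10 was 27.1 and 24.4 FPKM against 25.8, 22.8 and 23.3 FPKM and the groups overlapped. That over the 4 enzymes was then 17.1 and 15.3 FPKM against 15.2, 14.3 and 13.6 FPKM, barely separate. Without *Tdg* the sum of the other 9 was 18.4 and 17.0 FPKM against 18.8, 16.2 and 16.7 FPKM, and the groups overlapped.

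Over the glycosylases as a group, 6 of 10 were tested and 1 passed the study's threshold, *Tdg*, which was lower in *Hdac1* cKO. Among all 12740 tested genes 0.659% passed in either direction, 0.259% in the lower and 0.4% in the higher. At an adjusted limma p of 0.05 the count of glycosylases was 0, with 1 at an unadjusted p under 0.05, and 0.00785% and 4.36% of all tested genes passed these. For 3 of the 6 (*Tdg*, *Mbd4* and *Neil1*) the groups were separate, each lower in *Hdac1* cKO. Of all tested genes 20.4% were separate in either direction and 9.41% in the lower. The log2 fold change was below 0 in 3 of 6, against 46.3% of all tested genes, and the median was −0.13 against 0.01. It was −0.07 without control 1 and −0.20 without control 2. With 6 members these counts describe the group only.

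**Figure D3:**
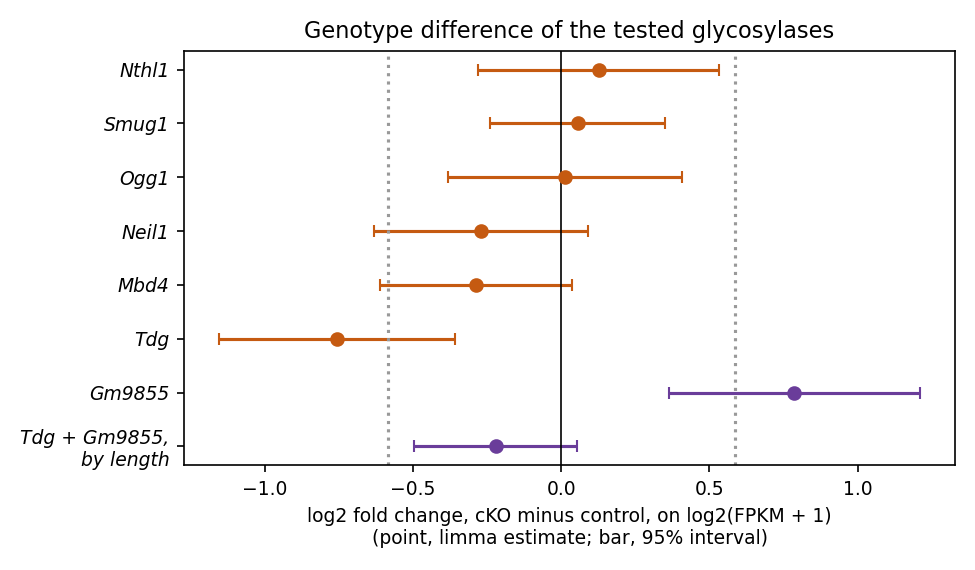
Limma log2 fold change (cKO minus control, on log2(FPKM + 1)) with its 95% interval for the 6 tested glycosylases (orange), and for *Gm9855* and the sum of *Tdg* and *Gm9855* by length (purple); dotted lines mark a fold change of 1.5. Only the intervals of *Tdg* and *Gm9855* leave out 0, on opposite sides, and that of their sum (−0.50 to 0.05) includes it.

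The later steps of base excision repair showed no transcript past the threshold, which 0.659% of all tested genes passed. All 18 genes on this list were tested, 9 were above 0 and 9 below, and the median log2 fold change was 0.000731, against 0.01 over all genes. *Apex1*, which cuts the abasic site that a glycosylase leaves, read 9.37 and 11.3 FPKM without Cre and 9.24, 10.3 and 10.5 FPKM with it (log2 fold change −0.04, limma, adjusted p = 0.989). *Polb*, the polymerase that fills the gap, had a log2 fold change of 0.03 and the nick ligase *Lig3* one of 0.09. *Xrcc1*, the scaffold of these enzymes, was at −0.06 and *Parp1*, which senses the break, at 0.09. The groups overlapped in all 18 genes, while 20.4% of all tested genes had separate groups.

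The study's interest in OGG1 acetylation extends to the enzymes that set it. *Ep300*, the acetyltransferase that acts on OGG1, read 6.25 and 6.41 FPKM without Cre and 6.17, 6.83 and 6.27 FPKM with it (log2 fold change 0.02, SE 0.12, limma, adjusted p = 0.989). Its relative *Crebbp* had a log2 fold change of −0.02. Of the 7 acetylases and deacetylases on this list only the deleted gene, *Hdac1*, passed the threshold, as did 0.659% of all tested genes. *Sirt3*, named after its values were seen, read 58.3 and 57.0 FPKM without Cre and 61.5, 62.8 and 63.8 FPKM with it. It was higher without overlap, as were 11% of all tested genes (log2 fold change 0.12, limma, adjusted p = 0.955).

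Lists around the glycosylases gave 0 further calls. *Mpg*, the glycosylase for alkylated bases, was at 5.83 and 7.49 FPKM against 7.68, 7.58 and 6.66 FPKM (log2 fold change 0.12), a level above that of *Smug1* in all 5 libraries. None of the 5 genes of alkylation repair passed, while 0.659% of all tested genes did. *Mgmt*, named after its values were seen, had a log2 fold change of −0.59, past the fold threshold, but its groups overlapped (limma, unadjusted p = 0.0731, adjusted p = 0.955). *Nudt1*, which clears oxidized dGTP from the nucleotide pool, was at 4.11 and 3.98 FPKM against 3.69, 3.96 and 5.71 FPKM (log2 fold change 0.09), and 0 of 8 nucleotide pool genes passed. In that list *Dctpp1*, a dCTP pyrophosphatase, and *Dut* were named after their values were seen. *Dctpp1* was higher without overlap, as were 11% of all tested genes. Its unadjusted limma p was 0.0200 with a log2 fold change of 0.31, below the fold threshold (adjusted p = 0.955). *Dut*, at 12.1 and 11.5 FPKM against 9.82, 11.4 and 9.71 FPKM, was lower without overlap, as were 9.41% of all tested genes (log2 fold change −0.18, limma, adjusted p = 0.955). Of 10 demethylation partners of TDG 7 were tested and 0 passed, with 5 of 7 below 0, against 46.3% of all tested genes, and a median of −0.16. *Gadd45a* (−0.29) and *Gadd45b* (−0.20), also named after their values were seen, were lower without overlap, as were 9.41% of all tested genes (limma, adjusted p = 0.955 for each).

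**Figure D4:**
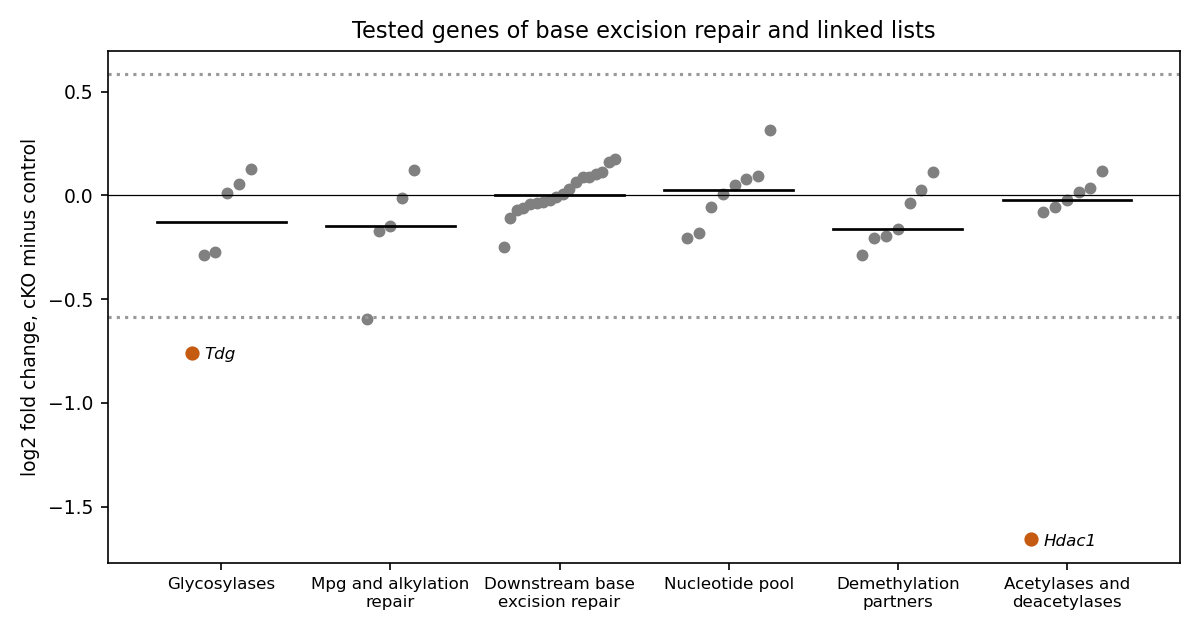
Log2 fold change (cKO minus control) of each tested gene (points) in the glycosylases and 5 linked lists, with a black bar at each list's median and dotted lines at a fold change of 1.5; orange points passed the threshold. Of these genes only *Tdg* and *Hdac1* passed, and the median of the 18 downstream repair genes is at 0.000731.

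The study also asked about guanine-rich promoters, so those of the glycosylases were searched. RefSeq windows (GRCm38.p6, 250 bases before to 50 after the start) matched 9 of the 10 genes, all but *Neil2*, with 2 windows for *Mutyh*. The letters GGGCGG, searched on both strands, were present in 7 of these 10 windows, among them 2 copies for *Ogg1*. They were present in 35.7% of all 32851 windows and in 65.9% of 8961 first windows of genes that averaged 1 FPKM or more. The glycosylase windows are not a like set, since they include a second *Mutyh* window and 3 genes below 1 FPKM. *Tdg*, *Neil1* and the second *Mutyh* window held none of these letters.

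Levels across libraries were also compared with those of every tested gene, each centred on its own mean. The 3 genes most like *Ogg1* were *Fam89b*, *Mgat4b* and *Jtb*, with mean absolute differences of 0.01, 0.02 and 0.02 in log2 units over 5 libraries, and 914 genes lay within 0.1 of it. The 3 most like *Tdg* were *Mreg*, *Ctla2b* and *Mfap2* (0.09, 0.12 and 0.13), with 1 gene within 0.1.

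Of the cell type markers, astrocyte markers summed to 3017 and 3006 FPKM without Cre and 3264, 3282 and 3412 FPKM with it. Of these 15 genes 8 were higher without overlap, against 11% of all tested genes, and 1 (*Aqp4*) passed the threshold (limma, adjusted p = 0.175). Of 15 neuron markers 0 passed, 14 were below 0, against 46.3% of all tested genes, and 4 were lower without overlap, against 9.41%, and 1 higher, against 11%. Of 10 oligodendrocyte markers 0 passed, 9 were above 0, as were 6844 of all 12740 tested genes, and 2 were higher without overlap. The sum over 12 microglia markers overlapped, from 364 to 430 FPKM in the controls and from 372 to 432 FPKM in *Hdac1* cKO. Of these 12 genes 0 passed and 1 was lower without overlap, against 9.41% of all tested genes. Choroid plexus markers varied in sum from 7.21 FPKM in control 2 to 606 FPKM in cKO 2. The part of any of these in the glycosylase levels was not tested.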

How the data were processed

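Hippocampal RNA was measured in 5 libraries, 1 per sample. Per the labels and the study's methods, the authors aligned reads to mm9 with Tophat2 and deposited FPKM values from Cufflinks 2.0.0, 1 file per library. FPKM are not counts, so no count test was used. Read totals are not in the files. Depth was estimated from the steps in low values, each step taken as 1 fragment, and is approximate. Values were tested with limma 3.58.1 in R 4.3.3 on log2(FPKM + 1), with a mean-variance trend and genotype as the only term, over the 12740 genes averaging 1 FPKM or more. P-values are two-sided, Benjamini-Hochberg adjusted over all tested genes, and measure the spread between samples, which the study describes as mice. The fold change understates that of genes at low FPKM.

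Library sets were built from the share of genes under 0.3 FPKM whose ratio between 2 libraries fell in a window of 0.05 log2 units, joined above 10%. Coordinates are 1-based (GENCODE vM1 on mm9). Copies were searched with BLAST 2.17.0. The fits were tested on simulated data. The members, lists, sets and tests were chosen with earlier results of these data known. Named genes were the members, *Hdac1*, genes of the lists past the threshold, 9 fixed pathway genes, overlapping genes, copies and the nearest profiles. *Ift122*, *Tsc2*, *Toe1*, *Sirt3*, *Mgmt*, *Dut*, *Dctpp1*, *Gadd45a*, *Gadd45b*, *Aqp4* and 2 neuron markers given as examples were named outside this rule. Alternatives were other pseudocounts, filters, scalings, blocks and left-out libraries.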

Additional observations from a re-analysis of the deposited data

How the results depend on the processing

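Direction and call held for *Neil1* and *Mbd4* under all 13 alternatives of each, from −0.42 to −0.12 and from −0.41 to −0.25. *Ogg1* turned to −0.039 and *Smug1* to −0.0013 after rescaling to a common total, and leaving out 1 library at a time gave −0.12 to 0.15 for *Ogg1*, −0.0016 to 0.11 for *Smug1*, −0.024 to 0.28 for *Nthl1* and −0.93 to −0.58 for *Tdg*. *Tdg* was −0.22 as the length-weighted sum with *Gm9855* and 0.17 as the plain sum. The count of all genes past the threshold, 84, was 142 with a pseudocount of 0.1, 43 with a minimum mean of 5 FPKM, and 92 to 234 leaving out 1 library (156 without control 1, 234 without control 2, 151 without cKO 1). That of glycosylases was 0 with the minimum of 5 FPKM, which leaves only *Smug1* to test and moves the median of the glycosylases to 0.055, and 0 to 1 leaving out 1 library. Of the order of levels, *Smug1* minus *Tdg* was −0.19, *Nthl1* minus *Mbd4* −0.19 and *Neil2* minus *Ung* −0.011 in the controls alone. *Tdg* minus *Ogg1* was −0.16 and *Neil1* minus *Nthl1* −0.061 in the cKO libraries alone. Leaving out 1 library gave −0.038 to 0.19 for *Neil1* minus *Nthl1* and −0.0081 to 0.15 for *Nthl1* minus *Mbd4*. With *Tdg* taken as the length-weighted sum with *Gm9855*, *Smug1* minus *Tdg* was −0.36 and *Tdg* minus *Ogg1* 0.80. The cause of these shifts was not tested. With a pseudocount of 0.1 *Neil3* and *Ung*, both below the filter of the main fit, differed by 0.46 and −0.32.

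The libraries share replicate numbers only. Same-numbered libraries deviated together (r = 0.402 and 0.269 across genes), but each such pair also lies inside a library set. With the replicate block 133 genes passed the threshold, and the log2 fold change was −0.84 for *Tdg*, −0.25 for *Mbd4*, −0.33 for *Neil1*, 0.24 for *Nthl1*, 0.11 for *Smug1* and 0.0087 for *Ogg1*, with no call among the glycosylases changed. With the set block 95 genes passed and *Tdg* was at −0.77. The call for *Tdg* on the log2(FPKM + 1) scale ended without control 1. The approximate depth and the transcript lengths, which are those of another annotation than the one used for the FPKM values, limit the estimates of fragments and the weights of the sum.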
